A study of Mus musculus with 4 samples.

Results

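The 36 genes described here encode the glutamate receptors of the brain and the proteins that travel with them. They comprise 4 AMPA receptor subunits (Gria1 to Gria4), 6 NMDA receptor subunits (Grin1, Grin2a to Grin2d and Grin3a), 5 kainate receptor subunits (Grik1 to Grik5), 1 delta receptor subunit (Grid1) and 7 metabotropic receptors (Grm2 to Grm8). The accompanying proteins comprise 9 AMPA receptor auxiliary subunits (Cacng2, Cacng3, Cacng4, Cacng5, Cacng7, Cacng8, Shisa9, Cnih2 and Cnih3), 2 kainate receptor auxiliary subunits (Neto1 and Neto2) and 2 scaffold proteins (Grip1 and Grip2). They were picked out by gene symbol, with earlier results of these data known, and all 36 were found among the 31053 gene rows of every library. Nuclei came from the brains of perfused, untreated 2-month-old female C57/BL6 mice, 2 WT and 2 Csf1r+/- (HET) libraries, each from 1 mouse. HET mice lack 1 working copy of Csf1r, the receptor tyrosine kinase that microglia depend on, in all cells and not in microglia alone. The study compared these genotypes to ask how reduced CSF-1R signaling alters brain cells before symptoms appear. It used more mice per genotype than the 2 described here. No detergent was used to release the nuclei, and myelin debris was removed with magnetic beads.

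Glutamate opens the ionotropic receptors, which are ion channels built of 4 subunits, and it activates the metabotropic receptors, which signal through G proteins. AMPA receptors carry most fast excitatory transmission in the brain, NMDA receptors admit calcium when the membrane is depolarized, and kainate receptors act on both sides of the synapse. Subunit composition sets the calcium permeability and kinetics of each channel, and auxiliary subunits of the Cacng, Cnih, Shisa and Neto families tune gating and trafficking.

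In AMPA receptors calcium permeability turns on 1 codon in the pore loop, known as the Q/R site. Each of the 4 subunit genes encodes glutamine there, and in Gria2 messages the codon is edited to one for arginine. The stretches of 63 coding bases around this codon, read from GENCODE release M21 transcripts (GRCm38, the mm10 build of the deposited counts), are shown because the share of Gria2 among AMPA subunits is one of the measures that separated neuron subtypes below. They run 5′ to 3′ on the coding strand, with the Q/R codon in capitals.
Gria1: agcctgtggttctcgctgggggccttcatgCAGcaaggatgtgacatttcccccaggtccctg
Gria2: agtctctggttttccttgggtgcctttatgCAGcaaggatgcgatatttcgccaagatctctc
Gria3: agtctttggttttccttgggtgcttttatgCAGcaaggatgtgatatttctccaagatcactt
Gria4: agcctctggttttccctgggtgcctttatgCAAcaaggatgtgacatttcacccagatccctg
The codon lies in exon 11 of 16 in Gria1 (chr11:57243094-57243096, plus strand), exon 11 of 16 in Gria2 (chr3:80706911-80706913, minus strand), exon 11 of 16 in Gria3 (chrX:41610265-41610267, plus strand) and exon 12 of 17 in Gria4 (chr9:4464137-4464139, minus strand). It encodes residue 600, 607, 612 and 608 of the respective precursor proteins. Over the stretch, Gria1, Gria3 and Gria4 matched Gria2 at 49, 57 and 54 of 63 bases. UMI counts of nuclear RNA do not show whether a message was edited, so the values below concern subunit abundance only.

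The study's limits for a nucleus (500 to 50000 UMIs, over 200 genes, a mitochondrial share under 5%) left 9589 to 16114 nuclei per library, with medians of 4636 to 7454 UMIs. Both HET libraries were deeper than both WT libraries, with medians of 7454 and 6656 against 5490 and 4636 UMIs. Pairs of libraries shared 35 to 75 barcodes. The targeted gene was lower in the HET libraries: Csf1r in microglia measured 871 and 693 CPM (a gene's UMIs scaled to an equal UMI total per group) in the WT libraries, against 564 and 571 in the HET libraries. Nuclei were clustered without the 36 genes and named from marker genes, which gave 25971 excitatory and 7733 inhibitory neurons. It also gave 2252 oligodendrocytes, 707 microglia, 453 endothelial cells, 155 oligodendrocyte precursors and 54 astrocytes. Of 25 neuron groups, 13 carried the markers of a known subtype and the other groups are called by their 2 leading genes. In each glial and endothelial class, all of the class's own markers were at least 2-fold higher than in other nuclei, and in excitatory neurons 6 of 8 were. The oligodendrocyte class held 2 subclusters, of 1097 and 94 nuclei, in which 1080 and 84 nuclei came from WT replicate 2. The endothelial class joined 2 subclusters of 347 and 106 nuclei, with medians of 1142 and 2204 UMIs. WT replicates 1 and 2 and HET replicates 1 and 2 gave 224, 40, 35 and 48 nuclei of the larger. They gave 3, 44, 33 and 26 of the smaller. The microglia class also joined 2 subclusters, of 364 and 343 nuclei, with medians of 1559.5 and 1041 UMIs. In the same order the libraries gave 99, 139, 79 and 47 nuclei of the larger and 83, 62, 97 and 101 of the smaller. In the smaller one 8 of 12 oligodendrocyte markers were also at least 2-fold higher than in other nuclei. Thalamic relay neurons and 5 groups called by their leading genes, the largest of 8152 nuclei, did not carry enough markers of either neuron class and entered no contrast between classes.

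Levels are given as CPM of all UMIs in a group, in the order WT replicate 1, WT replicate 2, HET replicate 1, HET replicate 2, and the mean ± SD is over these 4 libraries. Because the length of a gene may affect its nuclear UMIs, which was not tested here, a level is compared between groups of nuclei and not between genes. Of the 36 genes, 35 reached 10 CPM in at least 1 of the 25 neuron groups. Grm6, a metabotropic receptor best known from retinal bipolar cells, had 7 UMIs in all nuclei. For 18 genes the same neuron group ranked first in all 4 libraries, and for 12 of them its lowest library lay above every library of every other group. These ranks are a description without a test.

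**Figure D1:**
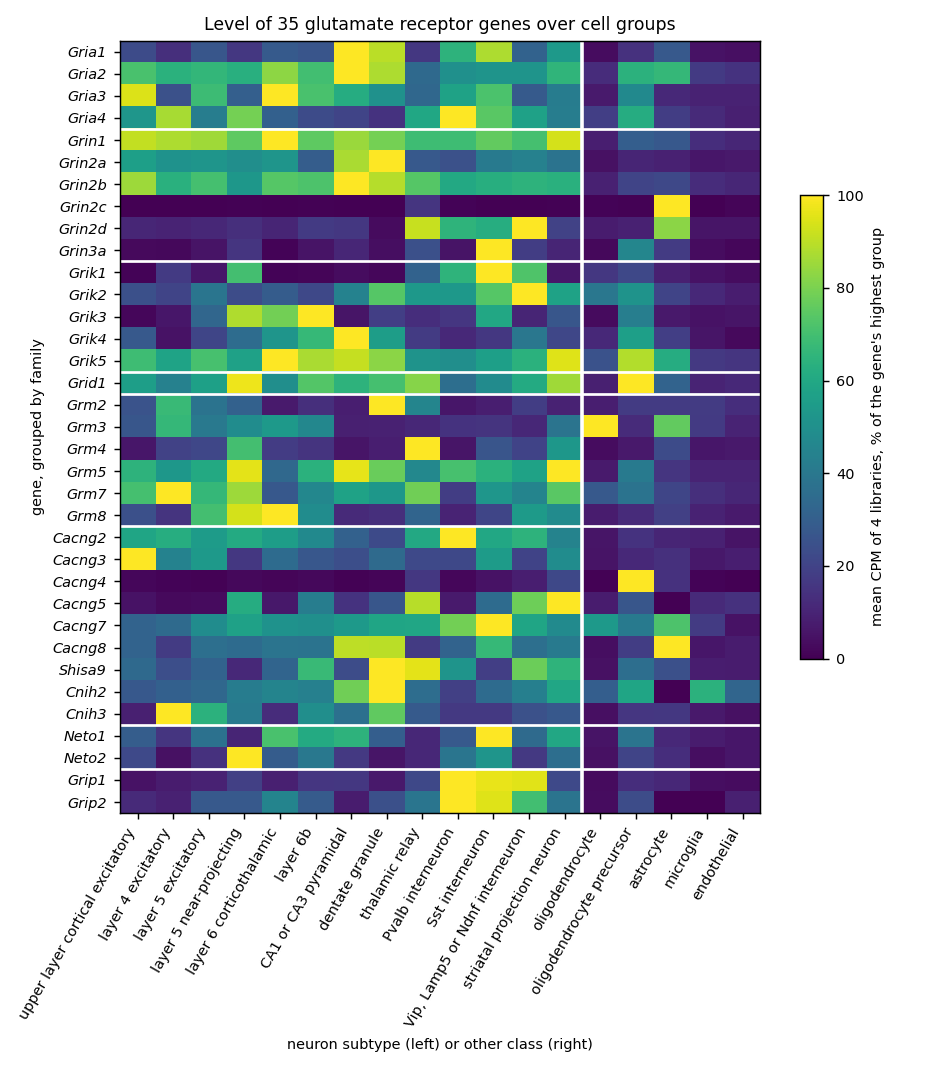
Mean level of 35 of the 36 genes (rows, grouped by family; Grm6 is left out) in 13 marker-named neuron subtypes and 5 other classes (columns), each as a percentage of the gene's highest column. Hippocampal pyramidal and dentate groups are bright for Gria1, Grin2a and Grin2b, cortical interneurons for Grip1 and Grik1, oligodendrocytes for Grm3 and oligodendrocyte precursors for Cacng4.

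Among AMPA receptor subunits, Gria1 and Gria4 varied most over the 13 subtypes. Gria1 measured 2998, 2970, 2848 and 2875 CPM in CA1 or CA3 pyramidal neurons and 395 on average in layer 4 neurons. The inhibitory Pde1c/Lgr5 group had a higher mean of Gria1, 3327 ± 499 CPM, but its libraries overlapped those of the pyramidal neurons. Gria4 was lowest in dentate granule neurons (339 ± 103 CPM) and reached 2348 ± 145 in Pvalb interneurons and 2040 in layer 4 neurons. The excitatory Oprk1/Gnb4 group ranked first for Gria4 in all 4 libraries with 3878, 2723, 3275 and 4114 CPM. Gria3 was highest in layer 6 corticothalamic neurons (1521 ± 98.5 CPM), which overlapped upper layer neurons (1443 ± 92.8).

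Over the 13 subtypes the Gria2 share of all Gria1 to Gria4 UMIs was lowest in Sst and Pvalb interneurons. It was 18.2%, 21.5%, 21.2% and 19.3% in Sst interneurons and 19.4%, 20.4%, 21.9% and 19.9% in Pvalb interneurons, whose ranges overlapped. Thalamic relay neurons came next with 27.1% ± 0.8. The Vip, Lamp5 or Ndnf interneurons lay higher, at 32.2% to 34.8%, and did not overlap the other interneurons. The 8 cortical and hippocampal excitatory subtypes ranged on average from 35.9% in upper layer neurons to 43.3% in layer 6b neurons. No WT or HET library of the Sst or Pvalb interneurons came within the range of any excitatory subtype. Outside the 13 subtypes, the Fign/Six3 group (21.1% ± 2.2) and the inhibitory Pde1c/Lgr5 group (22.8% ± 1.1) overlapped these interneurons. The excitatory groups Oprk1/Gnb4 (26.3% ± 1.0) and Slc26a4/Dnah14 (31.2% ± 0.8) lay below the excitatory subtypes. Gria2 itself was 1348 CPM in Sst interneurons and 1309 in Pvalb interneurons. All excitatory neurons together measured 1917, 1828, 1770 and 1881 CPM. CA1 or CA3 pyramidal neurons had the highest mean of all neuron groups (2613 ± 141) and the Lama1/Col18a1 group the lowest (782 ± 75.0). A low share also depends on the levels of Gria1, Gria3 and Gria4, so it does not by itself mean a low level of Gria2. As the shares add UMIs of genes of different length, only their order across groups can be read, not the stoichiometry of the channels.

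**Figure D2:**
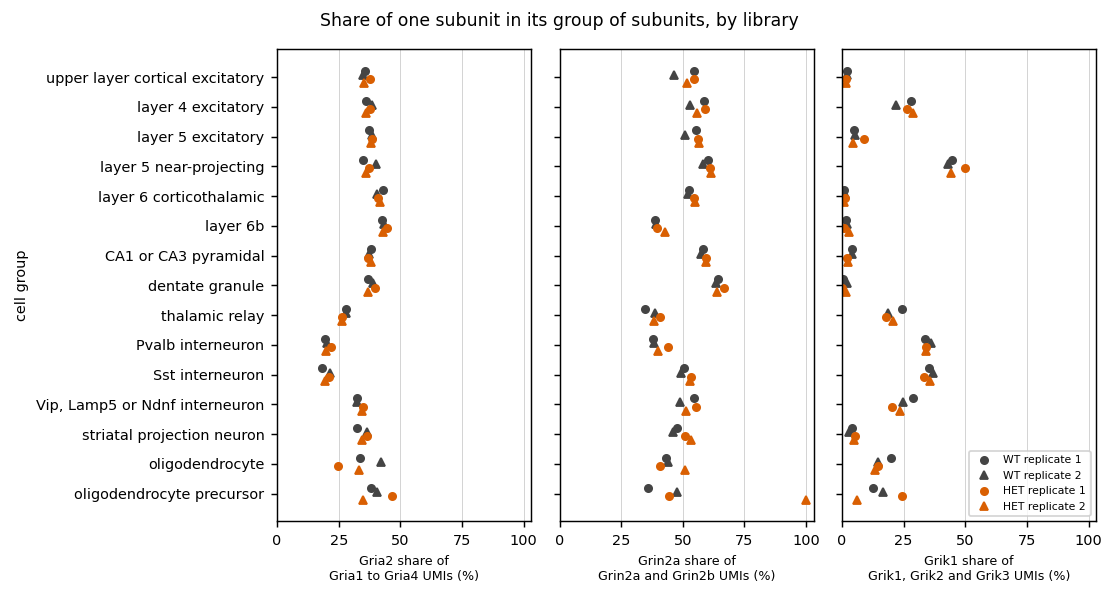
Share of Gria2 among Gria1 to Gria4 UMIs, of Grin2a among Grin2a and Grin2b UMIs and of Grik1 among Grik1 to Grik3 UMIs (x axes, percent) in 13 neuron subtypes, oligodendrocytes and oligodendrocyte precursors (y axis), with 1 point per library. Sst and Pvalb interneurons sit near 20% for Gria2, dentate granule neurons near 65% for Grin2a and layer 5 near-projecting neurons near 45% for Grik1; the 4 libraries of a neuron subtype lie close together, whereas the precursor points, from as few as 7 nuclei, scatter.

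The NMDA receptor subunits Grin2a and Grin2b, which bind glutamate and set channel kinetics, were both high in the hippocampus. Grin2a measured 3539, 3679, 3603 and 3531 CPM in dentate granule neurons, above all 4 libraries of the CA1 or CA3 pyramidal neurons that ranked second (3052 to 3226). The Grin2a share of Grin2a and Grin2b UMIs was 64.6% ± 1.4 in dentate granule neurons. It was lowest among the 13 subtypes in thalamic relay (38.1% ± 2.6), layer 6b (39.9% ± 1.9) and Pvalb (40.0% ± 2.7) neurons, which overlapped each other. Grin1, the obligatory subunit, varied least of the NMDA subunits, from 254 CPM in thalamic relay neurons to 370 in layer 6 corticothalamic neurons among the 13 subtypes.

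Grin3a, which lowers the calcium permeability of NMDA receptors, marked Sst interneurons. It measured 1012, 745, 1011 and 1018 CPM there, and the group ranked second, Lama1/Col18a1, did not exceed 429.5 CPM in any library. In Pvalb interneurons Grin3a averaged 51.8 CPM. Over the 13 subtypes Grin2d was highest in interneurons and thalamic relay neurons, at 45.9 ± 2.7 CPM in Vip, Lamp5 or Ndnf interneurons and 42.0 ± 6.1 in thalamic relay neurons. Grin2c averaged at most 2.1 CPM in 12 of the 13 subtypes and reached 31.2 ± 6.3 CPM in thalamic relay neurons.

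Kainate receptor subunits differed strongly between subtypes. Grik1 measured 1655, 1513, 1310 and 1570 CPM in Sst interneurons, was also high in layer 5 near-projecting neurons (1062 ± 134) and was lowest in layer 6 corticothalamic neurons (14.5 ± 1.7). Its share of Grik1 to Grik3 UMIs was 44.7%, 43.0%, 50.0% and 44.2% in layer 5 near-projecting neurons against 1.0% ± 0.1 in layer 6 corticothalamic neurons. Grik2 was highest in Vip, Lamp5 or Ndnf interneurons (3321 ± 204 CPM) and lowest in layer 4 neurons (677 ± 17.3). Grik3 marked the deep cortex: it reached 559 ± 42.1 CPM in layer 6b, 494 ± 31.9 in layer 5 near-projecting and 439 ± 31.9 in layer 6 corticothalamic neurons, and only 10.2 ± 0.1 in upper layer neurons. Grik4, a subunit that assembles with other kainate subunits at high glutamate affinity, measured 434, 583, 456 and 545 CPM in CA1 or CA3 pyramidal neurons, above every library of layer 6b neurons (297 to 386). Grik5, another subunit of that kind, varied little, from 61.0 CPM in Pvalb interneurons to 124 in layer 6 corticothalamic neurons.

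Their auxiliary subunits followed different subtypes. Neto1 was highest in Sst interneurons (865, 697, 887 and 860 CPM) and did not overlap layer 6 corticothalamic neurons (589 ± 21.6). Neto2 was highest in layer 5 near-projecting neurons, at 405, 507, 599 and 455 CPM, where the Lama1/Col18a1 group ranked second (300.2 ± 57.8). Grid1, the delta receptor subunit, which binds synaptic organizers, ranged over the 13 subtypes from 332 CPM in Pvalb interneurons to 900 ± 50.0 in layer 5 near-projecting neurons.

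Of the metabotropic receptors, Grm5, which couples to phospholipase C, was highest in the inhibitory Ano1/Prdm16 group (5075, 4980, 5218 and 5511 CPM). All 4 libraries lay above the striatal projection neurons (2909 to 3502), which ranked second. Grm7 and Grm8, presynaptic receptors that lower transmitter release, were both lowest in Pvalb interneurons, at 786 ± 107 and 137 ± 51.6 CPM. Grm7 was highest among the 13 subtypes in layer 4 neurons (4719, 3653, 4416 and 4627 CPM) and Grm8 in layer 6 corticothalamic neurons (1352 ± 117). Grm3 ranked first in the small Fign/Six3 group of 140 nuclei (1891 ± 240.0 CPM), and next in layer 4 neurons (884 ± 222). Grm2 stayed under 50 CPM in every neuron group, and Grm4 reached 87.6 ± 6.2 CPM in thalamic relay neurons.

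Among AMPA receptor auxiliary subunits, Cacng3 was highest in upper layer neurons (370, 341, 428 and 371 CPM). Cacng2, known as stargazin, was highest in Pvalb interneurons (184 ± 28.7 CPM), where it overlapped the Fign/Six3 group. Cacng8, a synaptic anchor of hippocampal AMPA receptors, was 122 ± 10.1 CPM in CA1 or CA3 pyramidal neurons and 122 ± 29.3 in dentate granule neurons, and these groups overlapped. Cnih2 and Cnih3 slow the closing of AMPA receptors. Cnih3 reached 121 ± 11.3 CPM in layer 4 neurons, which overlapped the Sim1/Myo5b group that ranked first (143 ± 29.8). Cnih2 stayed under 20 CPM on average in every group. Its highest means, in dentate granule (19.4 ± 12.6) and CA1 or CA3 pyramidal neurons (15.2 ± 8.8), overlapped. Cacng4 averaged 74.5 ± 10.0 CPM in striatal projection neurons, Cacng5 67.6 ± 12.7 in the inhibitory Cpa6/Lgr6 group and Cacng7 74.3 ± 10.4 in Sst interneurons. Shisa9 reached 852 ± 164 CPM in dentate granule neurons and was lowest in layer 5 near-projecting neurons (99.6 ± 27.3). Grip1, a scaffold that binds AMPA receptor tails, was 3636 ± 201, 3511 ± 239 and 3474 ± 330.3 CPM in Pvalb, Sst and Vip, Lamp5 or Ndnf interneurons, which overlapped. No other of the 13 subtypes averaged above 804 CPM of Grip1. Its relative Grip2 averaged at most 41.3 CPM over the 13 subtypes, again in Pvalb interneurons.

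Inhibitory and excitatory neurons differed in most of these genes. With edgeR's quasi-likelihood test on counts summed per library and class, and library as a block, 30 of 32 members tested passed an adjusted p of 0.05, 17 higher and 13 lower in inhibitory neurons. Over all 7427 genes 64.3% passed (34.1% higher and 30.2% lower), so the share of members is to be read against a contrast in which most genes differed. The members' median log2 fold change was 0.29 against 0.03 over all genes. These counts and the median include Cacng5, Cacng4, Grip2 and Grin2d, which met the detection limit in inhibitory neurons alone. The direction of these genes was favoured by how they entered the test.

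Among auxiliary subunits and scaffolds, Cacng5 was 3.22 ± 0.20 (log2 fold change ± SE) higher in inhibitory neurons, from a low level (25.4 against 2.6 CPM). Grip1 was 2.94 ± 0.08 higher (2516 against 310 CPM), Cacng4 2.46 ± 0.08 and Grip2 2.03 ± 0.09. Among channel subunits the higher ones were Grin3a (2.54 ± 0.13), Grik1 (2.51 ± 0.10), Grin2d (2.26 ± 0.10) and Gria1 (1.11 ± 0.08). Grik2 was 1.09 ± 0.04 higher and the metabotropic receptor Grm4 1.03 ± 0.13. Each of these had an adjusted p of 0.00026 or less by edgeR's quasi-likelihood test. Of them, Cacng5, Cacng4, Grip2 and Grin2d were tested through their inhibitory level alone.

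The members lower in inhibitory neurons had smaller ratios. Grm3 fell by 1.39 ± 0.10 on the log2 scale, Cnih3 by 0.84 ± 0.09, Cacng3 by 0.80 ± 0.07, Grm7 by 0.80 ± 0.06, Grik4 by 0.76 ± 0.04 and Grin2a by 0.65 ± 0.04. Gria3 (-0.39 ± 0.04) and Grm8 (-0.35 ± 0.05) followed, and all 8 had an adjusted p of 0.00038 or less by the same test. Gria2 was 0.30 lower (SE 0.05). Grik3 (-0.01 ± 0.04) and Cacng2 (0.18 ± 0.09) did not pass. Grin2c, Grm2, Grm6 and Cnih2 were under the detection limit of a UMI in 10% of nuclei and were not tested. Of 42 partner genes of the receptors, such as postsynaptic scaffolds, kinases and glutamate transporters, 30 of 37 tested passed, 24 lower and 6 higher. The partner list includes Slc17a7, Slc17a6 and Camk2a, which were also markers used to name excitatory neurons. The direction of these genes followed from the naming and is no result of the contrast.

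**Figure D3:**
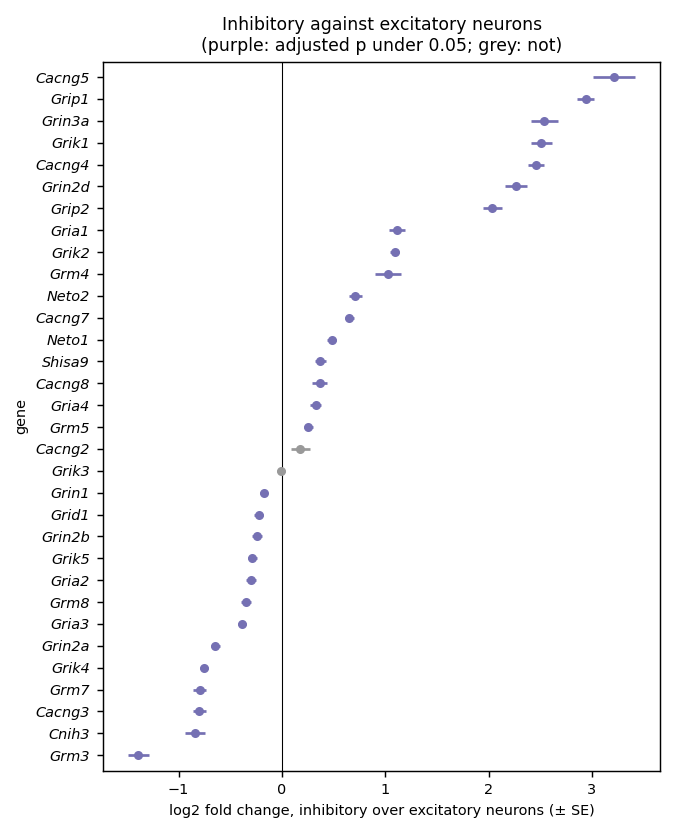
Log2 fold change of inhibitory over excitatory neurons (x axis, with SE bars) for the 32 members tested (y axis, sorted), from counts summed per library (4 libraries). Cacng4, Cacng5, Grin2d and Grip2 met the detection limit in inhibitory neurons alone. Purple points, 30 of 32, passed an adjusted p of 0.05; they range from 3.22 for Cacng5 to -1.39 for Grm3, and the grey points are Grik3 and Cacng2.

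Nuclei other than neurons also held UMIs of neuronal genes. The 12 pan-neuronal markers (among them Snap25, Syt1 and Rbfox3) had a median level of 10.3% to 34.9% of that in neurons of the same library in oligodendrocytes, microglia and endothelial cells, and none of the 12 was at 0. In oligodendrocyte precursors this median was 58.7% and 52.5% in WT and 37.6% and 20.1% in HET libraries. A member's level in such a class was therefore set beside these markers: it was counted as above them where it exceeded, in every library, the highest ratio of any marker with at least 10 UMIs in the class, which 12 of 12 markers had in oligodendrocytes, precursors and endothelial cells, 11 in microglia and 6 in astrocytes. This was a description without a test.

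In oligodendrocytes 1 of 32 members with at least 10 UMIs exceeded every marker in every library, namely Grm3, a receptor that inhibits adenylyl cyclase. It measured 1184, 1365, 1525 and 1234 CPM, or 228%, 387%, 411% and 231% of the neuronal level. Grik2 (1308, 1200, 1301 and 1441 CPM) equalled 88.5% to 114% of the neuronal level, and Grik1 and Cacng7 averaged 86.1% and 104%. These 3 were above the markers once WT replicate 2 was left out, when the marker Nefl no longer set a limit of 133%. Grm7 kept 44.5% of its neuronal level and Gria4 30.4%, whereas Gria2 ranged from 11.8% to 28.9%.

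In oligodendrocyte precursors Cacng4 stood above every marker in every library, at 259, 344, 333 and 448 CPM from 18, 144, 22 and 6 UMIs, against 10.0 to 15.3 CPM in neurons. Grin3a followed at 402% of the neuronal level on average (330.4, 528, 363 and 522 CPM) but did not exceed the highest marker in WT replicate 1. Grid1 reached 923 ± 86.8 CPM, or 175%, 149%, 163% and 164% of the neuronal level. It exceeded the highest marker in WT replicate 2 alone, where that marker was at 118%. Of the precursor nuclei, 21.3% had a high Scrublet score for doublets. Among 54 astrocytes, Grin2c, Grm3 and Grin3a were above the 6 markers with at least 10 UMIs, and only Grin2c was above all 12, a comparison chosen after seeing the data. Grin2c was counted at 5, 11, 2 and 4 UMIs (200.3 CPM on average) against 2.9 CPM in neurons, and Grm3 at 28, 54, 33 and 13 UMIs (1011 ± 253 CPM). The precursor and astrocyte classes held as few as 7 and 6 nuclei in a library, and no genotype test was run in them. In microglia only Cnih2 was above the markers, from 13 UMIs in all, and not with nuclei of at least 1000 UMIs; in endothelial cells no member was.

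In either neuron class, edgeR's quasi-likelihood test called no member between genotypes. In excitatory neurons 28 members were tested and none had an unadjusted p under 0.01, the study's threshold, where 0.367% of all 7635 genes did. With an adjusted threshold of 0.05 none passed edgeR's quasi-likelihood test, its likelihood-ratio test or DESeq2, and no other gene passed the first of these. An unadjusted p under 0.05 was found for 4 members and for 145 of 7635 genes in all. The members' median log2 fold change was -0.02 (all genes, -0.00). Grin3a had the smallest p: it measured 52.8 and 44.5 CPM in WT and 33.6 and 33.7 in HET libraries (log2 fold change -0.50 ± 0.14, edgeR adjusted p = 1.0). Gria1 came next with 856 and 875 CPM in WT and 679 and 689 in HET (-0.31 ± 0.10, edgeR adjusted p = 1.0). The subtype mix of the class differed between libraries. CA1 or CA3 pyramidal neurons, high in Gria1, gave 377 and 180 nuclei in WT and 82 and 100 in HET. Dentate granule neurons, also high in Gria1, gave 117 and 101 against 36 and 30, whereas layer 5 neurons gave 578 and 629 against 574 and 714. The part of this mix in the class values was not tested. Both HET libraries lay below both WT libraries for 8 of 28 members and for 17% of all genes. DESeq2 put both Grin3a and Gria1 under an unadjusted p of 0.01, the likelihood-ratio test, which the study used, put Grin3a there, and leaving out WT replicate 2 put 1 member there. Of all 7635 genes DESeq2 put 72 there and the likelihood-ratio test 63. Without WT replicate 2 it was 81 of 7633 genes.

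In inhibitory neurons 32 members were tested, none had an unadjusted p under 0.01 (0.12% of 6642 genes did) and none passed the adjusted threshold by any of the 3 tests. Grik4 was the only member with an unadjusted p under 0.05, where 116 of 6642 genes had one. It measured 99.0 and 116 CPM in WT and 78.4 and 93.6 in HET (-0.32 ± 0.13, edgeR adjusted p = 1.0). Shisa9 was next with 430.2 and 451 CPM in WT and 384 and 387 in HET (-0.19 ± 0.09). Both HET libraries lay below both WT libraries for 5 of 32 members and for 13.9% of all genes. In the test of whether the genotype difference itself differed between inhibitory and excitatory neurons, no member passed the adjusted threshold (0 of 7860 genes did). At unadjusted p under 0.01 it held 2 of 32 members against 1.5% of all genes: Grin3a (0.63 ± 0.09) and Cacng5 (0.95 ± 0.22), both relatively higher in inhibitory HET neurons. Cacng5 entered this test through inhibitory neurons alone, and its value rests on an excitatory level under the detection limit.

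Within the 13 neuron subtypes, 5 of 379 tests of a member had an unadjusted p under 0.01 (0.483% of 97151 tests of all genes did), all lower in HET, and none passed the adjusted threshold. Grm8 in Pvalb interneurons measured 186 and 172 CPM in WT and 74.5 and 115 in HET (-0.91 ± 0.19, edgeR adjusted p = 0.56). Shisa9 in Sst interneurons measured 196 and 195 CPM in WT and 137 and 102 in HET (-0.69 ± 0.15, adjusted p = 1.0), and Grik4 there 94.8 and 106 against 69.2 and 56.7 (-0.66 ± 0.16). Grik1 in CA1 or CA3 pyramidal neurons (-0.80 ± 0.24) and Grin3a in dentate granule neurons (-1.76 ± 0.55, from 3 and 4 UMIs in HET) were the others. The count was 15 without WT replicate 2, 9 without WT replicate 1 and 3 without HET replicate 1, where 1828 of 97461, 2710 of 97817 and 392 of 95526 tests of all genes passed. At the adjusted threshold it was 1 without WT replicate 1 and 3 without WT replicate 2, where 774 and 249 tests of all genes passed against 2 with all libraries. Across the subtypes the members' median log2 fold change ran from -0.09 in Pvalb interneurons to 0.09 in CA1 or CA3 pyramidal neurons.

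In endothelial cells glutamate receptor transcripts were lower in HET libraries. For all 14 members tested both HET libraries lay below both WT libraries, and edgeR's quasi-likelihood test called 7 at the adjusted and 9 at the unadjusted threshold. DESeq2 called 2 at the adjusted threshold, and 51 of all genes against 147 by edgeR. The background was 3.86% of 3809 genes at the adjusted threshold (3.78% lower) and 6.64% at the unadjusted one. Both HET libraries lay below both WT libraries for 18.1% of all genes. The members' median log2 fold change was -1.29 against 0.00 over all genes. The 14 members and this median include Gria1 and Shisa9, which met the detection limit in WT alone, so their direction was favoured by how they entered. Gria1 is also among the 7 and the 9 called.

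The AMPA subunit Gria1 changed most, from 184 and 209 CPM in WT to 46.0 and 50.0 in HET (57 and 29 against 6 and 7 UMIs; -2.11 ± 0.38, adjusted p = 0.0062). The NMDA subunit Grin2b measured 330 and 396 CPM in WT and 146 and 85.8 in HET (-1.75 ± 0.32, adjusted p = 0.0062). The metabotropic receptor Grm7 measured 660 and 684 against 215 and 336 CPM (-1.40 ± 0.26, adjusted p = 0.0062). In each of these 3 the higher HET library stayed well under the lower WT library. Gria1, with 6 and 7 UMIs in 68 and 74 HET nuclei, met the detection limit in WT alone, so its entry into the test depended on its WT level. The same held for Shisa9, with 3 and 6 HET UMIs. Gria2 measured 608 and 461 against 153 and 329 CPM (-1.28 ± 0.30, adjusted p = 0.023). Gria4 (-1.29 ± 0.31), Grm5 (-1.09 ± 0.27) and Grik2 (-1.10 ± 0.27) had adjusted p from 0.024 to 0.031. Grin2a (-1.15 ± 0.32) and Grm8 (-1.30 ± 0.40) passed the unadjusted threshold only, at adjusted p = 0.055 and 0.092.

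The pan-neuronal markers moved with these members. Their summed level in endothelial nuclei was 3524 and 3781 CPM in WT and 1196 and 1758 in HET, and 8 of 12 were lower in both HET libraries. All 5 that could be tested were lower at p under 0.01, with a median log2 fold change of -1.27, close to the members' -1.29. Among partner genes, the postsynaptic scaffolds Dlg2 (-1.46 ± 0.23), Dlgap1 (-1.55 ± 0.29) and Dlgap2 (-1.48 ± 0.37) also passed the adjusted threshold, 3 of 18 tested and all lower. The part of neuronal RNA in the members' result was not tested as a cause. A neuronal profile scaled to the median marker was also subtracted from each library, with values below 0 set to 0. It took off 30.3% and 34.9% of the neuronal level in WT and 19.3% and 17.7% in HET. Most members lay under these shares, such as Gria1 at 20.1% and 21.7% in WT and 5.8% and 6.3% in HET. Only 2 members kept enough UMIs to be tested. That none passed was therefore largely set by the subtraction and decides nothing. Without HET replicate 1 neither a member nor any other gene passed the adjusted threshold, and without WT replicate 2 or HET replicate 2 there were 3 members, of 61 and 71 genes.

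**Figure D4:**
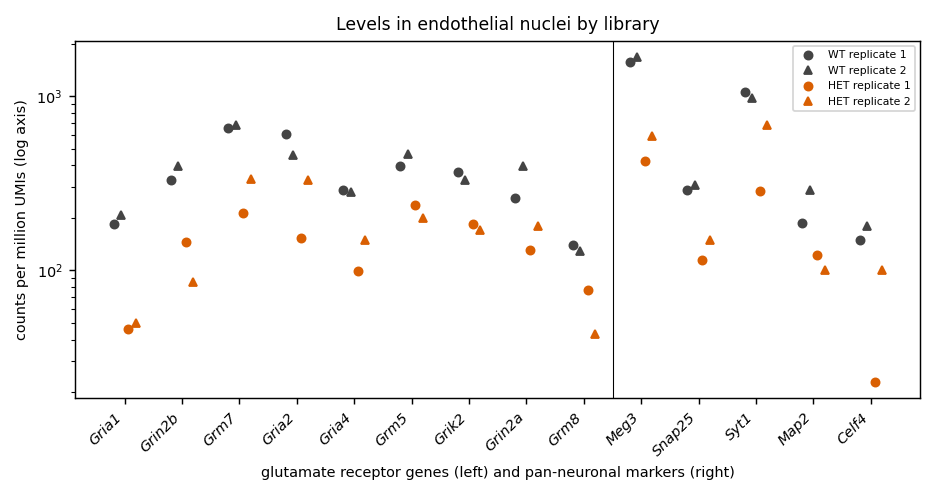
Level in endothelial nuclei (y axis, CPM, log axis) of the 9 members with an unadjusted p under 0.01 (left) and of the 5 pan-neuronal markers that could be tested (right), with 1 point per library, 2 WT and 2 HET. For every gene plotted both HET points lie below both WT points, on either side of the line.

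In microglia all 16 members tested gave a log2 fold change below 0, and none passed the adjusted threshold. At unadjusted p under 0.01 there were 7 (4.15% of 3177 genes were) and at 0.05 there were 13 (407 of 3177 genes were). The median log2 fold change was -0.88 against -0.01 over all genes. By edgeR's likelihood-ratio test 1 member passed the adjusted threshold (4 of 3177 genes did), and by DESeq2 none. Grm5 measured 429 and 453 CPM in WT and 209.6 and 195 in HET (-1.22 ± 0.23, edgeR adjusted p = 0.23). Grik2 measured 447 and 613 against 253 and 239 CPM (-1.21 ± 0.26), and Grin2b 344 and 365 against 195 and 219.6 CPM (-0.87 ± 0.23). WT and HET libraries did not overlap for these 3 genes. Gria4 (-0.87 ± 0.25), Neto1 (-1.49 ± 0.42), Grid1 (-1.20 ± 0.35) and Grm7 (-0.79 ± 0.23) were the other 4. Neto1, Grid1, Shisa9 and Grik1 had too few HET UMIs to meet the detection limit in HET nuclei. They entered the test through their WT level alone. Both HET libraries lay below both WT libraries for 14 of 16 members, where 17.9% of all genes did. The summed pan-neuronal markers were 3642 and 3015 CPM in WT and 1626 and 2220.1 in HET, 6 of 12 were lower in both HET libraries, and the 5 tested had a median log2 fold change of -0.94. Their part in the members' difference was not tested. The mix of the 2 microglial subclusters, 1 of which carried oligodendrocyte markers, differed between genotypes, and its part was not tested either. Grm3, high in oligodendrocytes, measured 147 and 459 CPM in WT and 163 and 137 in HET microglia. Among 17 partner genes tested, Dlg2 (-1.01 ± 0.25), Dlgap2 (-1.02 ± 0.25) and the glial glutamate transporter Slc1a2 (-1.33 ± 0.41) had an unadjusted p under 0.01. The 7 became 1 without HET replicate 1, 3 without HET replicate 2 and 11 without WT replicate 2, where 16, 69 and 226 of all genes passed. At the adjusted threshold 5 members of 274 genes passed without WT replicate 1 and 6 of 141 without WT replicate 2, where no gene passed with all libraries. With the neuronal profile subtracted, 3 members could be tested and none passed. The subtraction took more from WT than from HET libraries and left the other members too few UMIs, so this count decides nothing.

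In oligodendrocytes the members split. Of 16 tested, 7 were lower in HET at unadjusted p under 0.01 (4.91% of 3298 genes passed, 4.82% lower). None passed the adjusted threshold by edgeR's quasi-likelihood test, against 7 by its likelihood-ratio test and 3 by DESeq2, which called 153 and 37 of all genes. An unadjusted p under 0.05 was found for 9 members and for 337 of 3298 genes. Grm5 measured 302 and 324 CPM in WT and 147 and 178 in HET (-0.97 ± 0.17, edgeR adjusted p = 0.093). Grin2b measured 248 and 286 against 114 and 149.8 CPM (-1.06 ± 0.19), and Gria3 151 and 153 against 63.7 and 83.6 CPM (-1.08 ± 0.20). In these 3 the higher HET library stayed below the lower WT library, which held for 9 members and for 17.1% of all genes. Grip1 (-1.22 ± 0.23), Gria2 (-0.95 ± 0.20), Shisa9 (-1.31 ± 0.32) and Gria1 (-1.12 ± 0.28) were the other 4, with adjusted p from 0.093 to 0.11. Shisa9, with 23 and 15 UMIs in 432 and 306 HET nuclei, met the detection limit in WT alone.

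For 7 of the 16 members the WT and HET libraries overlapped: Grm3 (0.10 ± 0.18), Grik2 (0.11 ± 0.16), Grm7 (-0.02 ± 0.16), Gria4 (-0.03 ± 0.24), Grik1 (-0.22 ± 0.23), Grik4 (-0.27 ± 0.27) and Grid1 (-0.54 ± 0.32). They were at 13.9% (Grid1) to 314% (Grm3) of their neuronal level in this class. The summed pan-neuronal markers were 2536 and 2487 CPM in WT and 1149 and 1562 in HET, 9 of 12 were lower in both HET libraries, and the 5 tested had a median log2 fold change of -0.97 against -0.75 for the members and 0.02 over all genes. Their part in the members' difference was not tested. Of 17 partner genes tested, Camk2a (-1.39 ± 0.26), Dlgap1 (-0.89 ± 0.21) and Slc1a2 (-1.41 ± 0.35) had an unadjusted p under 0.01. Without HET replicate 1 the 7 members became 4, and without WT replicate 2, which supplied 1177 of the 2252 nuclei, there were 7. Over all genes 45 and 223 passed in these fits. At the adjusted threshold 8 members of 262 genes passed without WT replicate 1 and 6 of 129 without WT replicate 2, where no gene passed with all libraries. With the neuronal profile subtracted, 7 members could be tested and none passed. The subtraction took more from WT than from HET libraries and left the other members too few UMIs, so this count decides nothing.

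**Figure D5:**
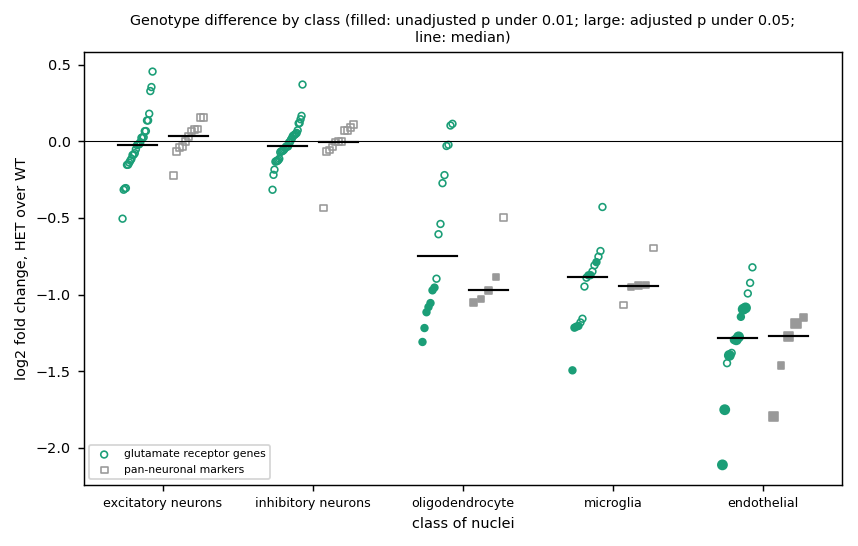
Log2 fold change of HET over WT (y axis) for the members tested (circles) and the pan-neuronal markers tested (squares) in 5 classes (x axis); filled symbols have an unadjusted p under 0.01, larger ones an adjusted p under 0.05, and lines are medians. Members scatter around 0 in both neuron classes (medians -0.02 and -0.03) and lie below 0 beside the markers in microglia and endothelial cells, while in oligodendrocytes 4 members stay near 0.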

How the data were processed

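The single-nucleus RNA-seq libraries used here (10x Chromium 3′ v3.1) came from 2 WT and 2 HET brains. The paper reports more mice per genotype than these 2. Its likelihood-ratio test and unadjusted threshold were applied to that larger set, so its calls and those given here rest on different numbers of libraries. The authors aligned reads and counted UMIs with Cell Ranger 5.0.0 on mm10, and the deposited values are raw UMI counts per gene and nucleus. The sources used here do not state the annotation release or whether intronic reads were counted. Replicates are separate mice per the labels.

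A nucleus was kept with 500 to 50000 UMIs, over 200 genes and a mitochondrial share under 5%, and barcode sequences shared between libraries made up 0.353% to 0.484% of the smaller library. All libraries were clustered together with scanpy 1.11.5 and leidenalg 0.10.2 (resolution 1) without the 36 genes, their 42 partners or mitochondrial, ribosomal and sex-linked genes. Doublets were scored per library with Scrublet; clusters with high scores in more than 50% of nuclei were left unnamed, and removal of all high-scoring nuclei was an alternative. A subtype or non-neuronal class was named where at least 3 of its markers were at least 2-fold higher than in other nuclei. A marker also had to be among the 10 leading genes of the cluster. Inhibitory neurons needed 4 of 6 markers at least 2-fold higher. For excitatory neurons at least 3 of 8 markers needed only to be as high as in other nuclei or higher. The naming rule was revised after clusters had been seen, and names may differ from those of the study. Nuclei in no named class made up 5.03% to 10.7% of a library and were left out.

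For each class the counts of a library's nuclei were added up and tested with edgeR 4.0.16 (quasi-likelihood, TMM scaling) in R 4.3.3, with Benjamini-Hochberg adjustment over all genes tested. A gene was tested if 10% of nuclei in WT or in HET had a UMI and its counts summed to 10 or more. A gene could therefore enter the test through either genotype alone. In the inhibitory against excitatory contrast library was a block, and a gene could enter through either class alone. Log2 fold changes are HET over WT or inhibitory over excitatory. On simulated counts (200 genes changed by 1.5 on the log2 scale) the test recovered 100% in excitatory, 93.5% in microglial and 84.5% in endothelial sums at an unadjusted p of 0.01. The simulation used the same fixed dispersion for every gene and class, not estimated from these data. Its recovery therefore need not hold for the real counts. Recovery of smaller log2 fold changes, such as those of the members in neurons, was not tested. An exact two-sided permutation test of 2 against 2 libraries cannot go below p = 0.333 and was not used. Class totals ranged from 130415 to 309316 UMIs in endothelial cells, 204942 to 350869 in microglia and 634348 to 2215829 in oligodendrocytes.

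Named genes were those with an unadjusted p under 0.01 in a class, the smallest p values where none had, and the 8 largest ratios in each direction between neuron classes; Gria2, Grik2 and Grm4 in that contrast were added after their values were seen. The members, the marker and partner lists and the tests were chosen with earlier results of these data known. Alternatives were DESeq2 1.42.0, edgeR's likelihood-ratio test, other scalings and filters, at least 1000 UMIs per nucleus, Leiden resolution 0.5, a block on the replicate number, a subtracted neuronal profile and leaving out each library. Sequences around the Q/R codon came from the GENCODE M21 annotation.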

Additional observations from a re-analysis of the deposited data

How the results depend on the processing

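The count of 30 members that differed between inhibitory and excitatory neurons held without each library, and the absence of an adjusted call in excitatory and inhibitory neurons held under every alternative run. At an unadjusted p under 0.01, excitatory neurons gave 1 member with edgeR's likelihood-ratio test, 2 with DESeq2, 2 with library totals alone and 0 to 1 when a library was left out. Over all genes these settings gave 63, 72, 31 and 16 to 200. Microglia gave 2 with DESeq2, 4 with library totals alone, 4 with at least 1000 UMIs per nucleus, 0 after neuronal subtraction (3 members testable) and 1 to 11 when a library was left out. Over all genes these microglial counts were 19, 94, 103, 5 and 16 to 382. At the adjusted threshold microglia gave 1 with the likelihood-ratio test and 0 to 6 when a library was left out, where 4 and 0 to 274 of all genes passed. Oligodendrocytes gave 4 with the subclusters that carried more than 6 pan-neuronal markers kept, a choice made after seeing the data, 0 after subtraction (7 testable) and 4 to 9 when a library was left out. Over all genes these counts were 95, 12 and 45 to 318. Adjusted calls were 7 with the likelihood-ratio test, 3 with DESeq2 and 0 to 8 when a library was left out. Over all genes these adjusted calls were 153, 37 and 0 to 262. Endothelial cells gave 0 after subtraction at either threshold (2 testable) and 6 to 12 when a library was left out. Over all genes these unadjusted counts were 14 and 149 to 343. Adjusted calls were 2 with DESeq2, 4 with no detection filter and 0 to 10 when a library was left out. Over all genes these adjusted calls were 51, 85 and 0 to 211. The 13 subtypes together gave 3 with DESeq2 and 3 to 15 when a library was left out, and adjusted calls of 1 with the likelihood-ratio test and 0 to 3 when a library was left out. Over the tests of all genes these counts were 304, 392 to 2710, 58 and 2 to 774. The counts of 0 after subtraction were largely set by the subtraction itself, which left few members testable, and decide nothing. The causes were not tested.

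Replicate numbers did not pair the libraries (correlations of deviations from -0.16 to 0.07). With the replicate number as a block there were 3 members at the unadjusted threshold in microglia, and 56 of 3177 genes in all. Adjusted calls were 8 in oligodendrocytes, 11 in endothelial cells and 3 in the subtypes. There the adjusted calls over all genes rose from 0 to 178, from 147 to 245 and from 2 to 265. In layer 4 and upper layer neurons, where the correlation was -0.15 and -0.16, a crossed pairing chosen after seeing the data gave 0 and 1 members at the unadjusted threshold, and 28 and 44 genes in all against 11 and 23.

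With a limit of 2 times the median marker, 4 members stood above in oligodendrocytes, 5 in precursors and 5 in astrocytes. With markers under 10 UMIs kept in the limit, a choice made after seeing the data, 1 stood above in astrocytes. With high Scrublet scores removed there were 2 in precursors, and with at least 1000 UMIs 0 in microglia. Leaving out a library gave 1 to 4 in oligodendrocytes, 1 to 3 in precursors, 3 to 5 in astrocytes and 0 to 1 in microglia. Of the values of single named genes and the counts in layer 4 and upper layer neurons under these alternatives, 299 kept their direction and side of the threshold, 56 lost the threshold, 6 gained it and 1, the upper layer count under the crossed pairing, moved; Gria2 in oligodendrocytes reversed to 0.0547 (log2) after subtraction. Low UMI sums limit endothelial and microglial values, and 22 and 20 of the 36 members could not be tested there.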

Other observations

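Of the partner genes of the receptors, Shisa6, an AMPA receptor auxiliary subunit outside the 36 genes, had the smallest p in excitatory neurons (log2 fold change of HET over WT -0.86 ± 0.10, adjusted p = 1.0 by edgeR's quasi-likelihood test, 2 libraries per genotype). It was the only 1 of 38 partner genes tested there with an unadjusted p under 0.01, and it did not pass the adjusted threshold. The value was -0.65 in layer 5 and -0.95 in layer 6 corticothalamic neurons, which are subsets of the same nuclei and no independent support.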
